A study of Homo sapiens with 4 samples.

Results

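Expression of 9 PARP genes and of DTX3L was compared between 786-O cells without VHL and 786-O cells with VHL put back. The genes were chosen by symbol, and all 10 had a row among the 12912 genes of the deposited count table, each with 1 Ensembl identifier. 786-O comes from a clear cell renal carcinoma and has lost VHL, the substrate-recognition subunit of a ubiquitin ligase. The 786-O-Ctrl libraries (786-OTR, genotype given as wild type and VHL-null) and the 786-O-VHL libraries (786-OTR, VHL restored with a retroviral vector for HA-tagged VHL) both come from cells that also carry a triple reporter of GFP, luciferase and thymidine kinase. There were 2 libraries per group. Each group is 1 subline, and nothing in the labels says that the libraries of a group come from separate cultures, so p-values measure the spread between these libraries, which may be technical. The test takes most of that spread from all genes together and not from the gene itself.

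PARP enzymes take ADP-ribose from NAD+ and attach it to proteins or nucleic acids. PARP1 and PARP2 bind broken DNA, build poly(ADP-ribose) chains together with the cofactor HPF1, and so bring in the strand break repair proteins that read the chains. They are the targets of PARP inhibitors. Most other members attach single ADP-ribose units or have lost activity. PARP9, PARP10, PARP12 and PARP14 are known as genes induced by interferon, and PARP9 works as a pair with DTX3L, a ubiquitin ligase of the deltex family. The members were therefore read in 3 role groups, with PARP1 and PARP2 as DNA repair members, PARP9, PARP10, PARP12, PARP14 and DTX3L as interferon-responsive members, and PARP4, PARP6 and PARP8 as the others.

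The counts summed to between 2807779 and 22141263 per library, with 786-O-VHL replicate 1 the shallowest. The 786-O-Ctrl columns share a replicate number, so their total count (deeper or shallower) names them. A level is given in CPM, the count divided by the TMM-scaled library total in units of 1000000 counts, and 3 counts, the limit that a count of 0 allows, corresponded to between 0.142 and 1.02 CPM. This limit and the exact intervals of count shares cover counting error only, whereas the intervals of log2 fold changes rest on the spread between libraries as well. VHL itself was at 42.9 and 43.9 CPM in 786-O-Ctrl, against 178 and 163 CPM with VHL restored. Of the renal epithelial tumor markers examined, 9 of 10 had counts, with PAX8, KRT8, KRT18, VIM, CDH2 and CDH6 at 137 CPM or more in every library, whereas CUBN and CA9 stayed at or below 1.70 CPM. Of these 9 markers, 4 were lower and 1 was higher in 786-O-VHL at FDR under 0.05 (31.9% and 32.6% of all genes tested), and their part in the results below was not tested. Of the markers of other cell types, 4 of 10 had counts, and none of these (CD14, PECAM1, COL1A1 and ACTA2) exceeded 9.26 CPM in any library.

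RefSeq promoters (build GRCh38.p14, 250 bases before to 50 after a start site, 300 in all) were matched by symbol for 8 of the 10 members, with 11 start sites. PARP10 and PARP4 had no entry. The interferon-stimulated response element is the DNA motif read by interferon-activated STAT and IRF factors, and its core was searched on both strands as GAAA repeated after any 2 bases. It lay in a promoter of DTX3L, PARP9, PARP14 and PARP12, and in no promoter of PARP1, PARP2, PARP6 or PARP8. The core is held by 3.57% of all 35116 promoters given and by 2.79% of the 14415 promoters of tested genes. The 6 promoters below are shown because they are those of the DNA repair members and of the interferon-responsive members with an entry, and capitals mark the core.
DTX3L (chr3:122564088-122564387, plus strand): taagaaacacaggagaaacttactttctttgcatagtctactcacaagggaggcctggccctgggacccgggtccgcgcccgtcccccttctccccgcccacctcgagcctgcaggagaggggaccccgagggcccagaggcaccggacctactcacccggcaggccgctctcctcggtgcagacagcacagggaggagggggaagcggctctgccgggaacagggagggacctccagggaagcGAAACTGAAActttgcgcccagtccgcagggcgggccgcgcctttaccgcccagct
PARP9 (chr3:122564251-122564550, minus strand): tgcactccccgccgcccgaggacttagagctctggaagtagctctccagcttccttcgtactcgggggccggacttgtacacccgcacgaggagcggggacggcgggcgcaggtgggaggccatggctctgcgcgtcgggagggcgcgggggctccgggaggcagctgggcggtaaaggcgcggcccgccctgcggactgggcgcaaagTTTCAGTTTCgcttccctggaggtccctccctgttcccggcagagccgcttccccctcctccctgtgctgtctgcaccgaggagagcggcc
PARP14 (chr3:122680589-122680888, plus strand): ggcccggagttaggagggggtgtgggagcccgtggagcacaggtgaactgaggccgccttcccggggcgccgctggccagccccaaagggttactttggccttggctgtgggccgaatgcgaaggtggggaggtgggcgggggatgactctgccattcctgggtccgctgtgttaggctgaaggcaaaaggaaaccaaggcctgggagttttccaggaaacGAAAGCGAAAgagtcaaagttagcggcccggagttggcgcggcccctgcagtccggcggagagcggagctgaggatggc
PARP12 (chr7:140062902-140063201, minus strand): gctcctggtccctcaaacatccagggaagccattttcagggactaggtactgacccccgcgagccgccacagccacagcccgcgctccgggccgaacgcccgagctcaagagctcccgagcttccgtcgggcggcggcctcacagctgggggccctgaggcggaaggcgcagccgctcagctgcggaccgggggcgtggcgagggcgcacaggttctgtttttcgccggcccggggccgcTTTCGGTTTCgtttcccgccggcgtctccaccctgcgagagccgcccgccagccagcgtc
PARP1 (chr1:226408044-226408343, minus strand): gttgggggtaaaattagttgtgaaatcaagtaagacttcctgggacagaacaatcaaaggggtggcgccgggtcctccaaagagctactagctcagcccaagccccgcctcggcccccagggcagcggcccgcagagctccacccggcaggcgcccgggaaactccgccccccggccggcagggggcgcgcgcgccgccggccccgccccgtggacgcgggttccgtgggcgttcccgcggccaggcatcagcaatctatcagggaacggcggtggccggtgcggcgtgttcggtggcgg
PARP2 (chr14:20343385-20343684, plus strand): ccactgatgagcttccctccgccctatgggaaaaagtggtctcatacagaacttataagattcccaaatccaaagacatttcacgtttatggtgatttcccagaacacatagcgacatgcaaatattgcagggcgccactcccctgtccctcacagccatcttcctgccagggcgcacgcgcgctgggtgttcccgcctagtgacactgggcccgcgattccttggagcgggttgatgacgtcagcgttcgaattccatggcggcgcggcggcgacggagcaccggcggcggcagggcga
The cores of DTX3L and PARP9 are the same 10 bases, chr3:122564332-122564341, read from opposite strands. They run from 6 bases before to 4 bases after the DTX3L start site and from 41 to 32 bases before this PARP9 start site. In PARP14 the core lies 29 to 20 bases before the start site, and in PARP12 it lies in the last 10 bases before it. The other PARP9 start site had no core. PARP14 also held TTCCAGGAA, a match to the STAT site TTCNNNGAA found in 7.66% of all promoters and 6.18% of those of tested genes, and PARP2 held TTCCCAGAA. An E2F site, searched as TTTCCCGC or TTTGGCGC and present in 2.27% of all promoters and 3.25% of those of tested genes, was found in PARP12 alone among the members. The hypoxia response element core, ACGTG or GCGTG, was in 48.4% of all promoters and in 60.1% of the promoters of tested genes. PARP1, PARP2, PARP12, PARP6 and PARP8 held it, 5 of the 8 members with an entry. The motifs were chosen after the sequences were seen. These are matches of letters, and binding was not measured.

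PARP1 mRNA fell and PARP14 mRNA rose, each by more than 2-fold. The ratio of PARP14 counts to PARP1 counts passed from below 1 in both 786-O-Ctrl libraries to above 1 in both 786-O-VHL libraries. Those counts are not corrected for transcript length. Per kilobase of canonical transcript, PARP14 was at 31.3 against 32.2 CPM for PARP1 in 786-O-VHL replicate 1, and 33.5 against 27.6 in replicate 2. Of the 10 members, 9 passed an FDR under 0.05 (64.5% of the 12335 genes tested did). The FDR is the Benjamini-Hochberg adjusted p of the edgeR quasi-likelihood test, and every log2 fold change is that of 786-O-VHL over 786-O-Ctrl. Of these, 6 were higher in 786-O-VHL (32.6% of all genes) and 3 were lower (31.9%). All 10 members passed the filter on low counts in both groups, since the lowest count of any member in any library was 70. The libraries of both groups did not overlap for the same 9 members, as for 80% of all genes (40.8% higher and 39.2% lower), so both shares have to be read against a broad difference between the sublines. No member passed a fold over 4 with FDR under 0.01 (4.46% of all genes), and PARP1, PARP14 and PARP6 passed a fold over 2 with FDR under 0.05 (17.5% of all genes). The median log2 fold change was -0.84 over the 2 DNA repair members, 0.70 over the 5 interferon-responsive members, 0.63 over the other 3 and 0.017 over all genes tested. Without TMM, on library totals alone, the median of all genes was 0.15, and 62.1% of the genes called were higher in place of 50.5%.

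**Figure D1:**
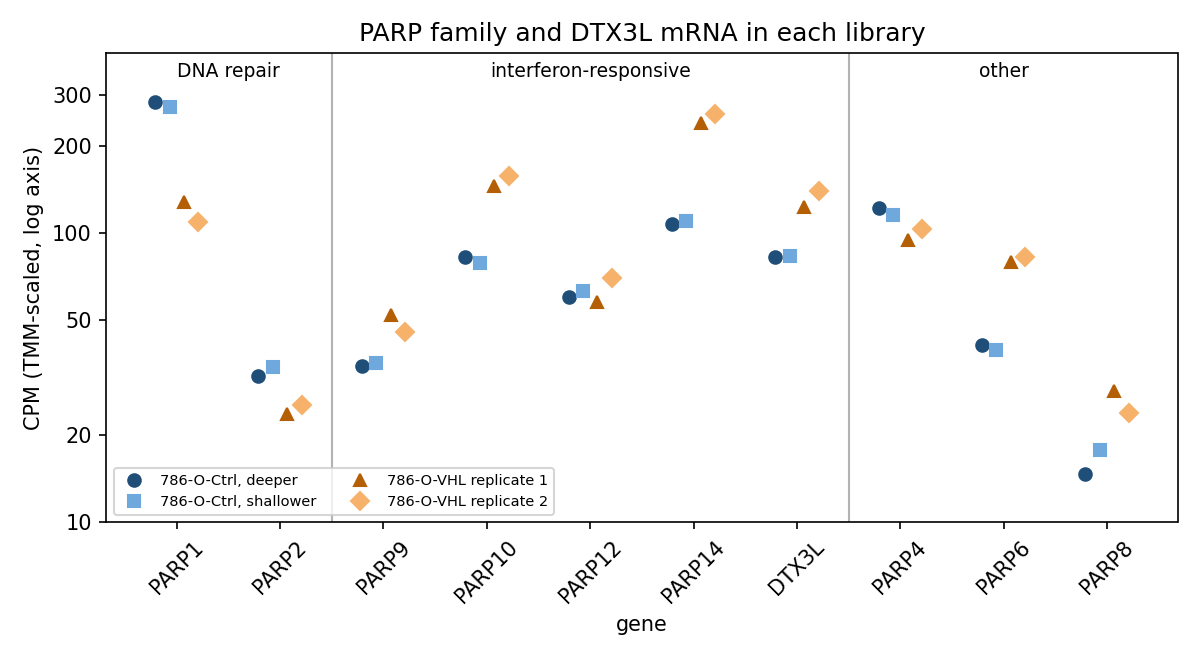
Level of each member in CPM on a log axis, with 1 symbol per library, ordered by role. PARP1 and PARP2 lie lower in both 786-O-VHL libraries, PARP9, PARP10, PARP14 and DTX3L lie higher, while the values of PARP12 with VHL (58.0 and 70.2 CPM) lie on either side of its 786-O-Ctrl values.

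PARP1 (ENSG00000143799.13), the main sensor of DNA strand breaks, is annotated on the minus strand (chromosome 1 from 226547911 to 226595855, GRCh37, the build of all gene positions here). It was at 284 and 274 CPM in the 786-O-Ctrl libraries and at 128 and 110 CPM in 786-O-VHL replicates 1 and 2, from 5985, 4122, 378 and 1846 counts. Both 786-O-VHL libraries were far below both 786-O-Ctrl libraries. The means were 279 ± 7.26 and 119 ± 13.2 CPM (SD, n = 2 each), 2.42-fold lower with VHL. The log2 fold change was -1.27 with a standard error (SE, as implied by the F statistic) of 0.0717 and edgeR FDR = 5.44e-15. In bulk RNA, fewer cells that express a gene and less RNA per cell cannot be told apart, here and for every gene that follows. With each library left out in turn it stayed between -1.35 and -1.13.

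PARP2 (ENSG00000129484.13, chromosome 14 from 20811774 to 20826063, plus strand), the second break-activated polymerase, changed less. It was at 32.1 and 34.4 CPM in 786-O-Ctrl, against 23.7 and 25.5 CPM with VHL restored, from 676, 517, 70 and 429 counts. The groups did not overlap, and the spread within each was small beside the gap. The means were 33.2 ± 1.60 and 24.6 ± 1.22 CPM (SD, n = 2 each), at log2 fold change -0.40 (SE 0.107, edgeR FDR = 0.00172). With every library thinned to the depth of the shallowest it was -0.21 (edgeR FDR = 0.341). Annotated antisense RNAs without counts here overlap PARP2 by 71 and 2656 bases.

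Among the interferon-responsive members, PARP14 (ENSG00000173193.15, chromosome 3 from 122399686 to 122449687, plus strand) rose most. PARP14 is a macrodomain protein that attaches single ADP-ribose units and is known as a partner of STAT6 in IL-4 signaling. It was at 108 and 111 CPM in 786-O-Ctrl, against 241 and 258 CPM with VHL restored, from 2268, 1664, 711 and 4345 counts. Each 786-O-VHL library held more than double the level of each 786-O-Ctrl library. The means were 109 ± 2.04 and 250 ± 11.9 CPM (SD, n = 2 each), at log2 fold change 1.21 (SE 0.0645, edgeR FDR = 1.7e-15), and it stayed between 1.14 and 1.24 with each library left out. PARP14, like IRF1 and STAT2 below, is among the interferon alpha response genes that the study picked out by enrichment on these libraries, so its direction is not independent evidence about interferon genes. At the protein level the paper lists PARP14 and PARP9 as lower in 786-O-VHL. It also lists them as ubiquitinated in 786-O-VHL cells given the proteasome inhibitor MG132. The list was further limited to proteins higher in clear cell renal tumors than in normal adjacent tissue. The lower protein is opposite in direction to the mRNA of both genes here, and the difference was not tested.

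PARP10 (ENSG00000178685.14, chromosome 8 from 145051321 to 145086940, minus strand), an enzyme that attaches single ADP-ribose units to proteins, came next. It was at 82.5 and 79.0 CPM in 786-O-Ctrl, against 146 and 158 CPM with VHL restored, from 1738, 1188, 431 and 2660 counts. The groups were far apart. The log2 fold change was 0.93 (SE 0.0669, edgeR FDR = 1.08e-12). GRINA lies across 3360 bases of PARP10 on the opposite strand and was at 347 and 350 CPM in 786-O-Ctrl, against 433 and 387 CPM with VHL restored (log2 fold change 0.22, edgeR FDR = 0.00337), a call lost without either 786-O-Ctrl library (edgeR FDR = 0.0935 and 0.0716). Whether reads of GRINA were counted on PARP10 was not tested.

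DTX3L and PARP9, the ubiquitin ligase and its macrodomain partner, rose by less. DTX3L (ENSG00000163840.10, chromosome 3 from 122283185 to 122294050, plus strand) was at 83.0 and 83.4 CPM in 786-O-Ctrl, against 123 and 141 CPM with VHL restored, from 1747, 1255, 363 and 2366 counts. Its log2 fold change was 0.70 (SE 0.0692, edgeR FDR = 8.24e-10). PARP9 (ENSG00000138496.16, chromosome 3 from 122246771 to 122283424, minus strand) was at 34.8 and 35.7 CPM in 786-O-Ctrl, against 52.2 and 45.7 CPM with VHL restored, from 733, 537, 154 and 769 counts. Its log2 fold change was 0.43 (SE 0.0923, edgeR FDR = 0.000207). Neither gene overlapped between the groups. The ratio of PARP9 to DTX3L counts was 0.420 and 0.428 without VHL, 0.424 in 786-O-VHL replicate 1, and it was 0.325 in 786-O-VHL replicate 2, so the ratio was within 0.420 to 0.428 in 3 of the 4 libraries. As a share of the pair, PARP9 took 29.8% (exact 95% interval 25.9 to 33.9) in replicate 1 with VHL, whereas it took 24.5% (23.0 to 26.1) in replicate 2. The intervals of the 786-O-Ctrl libraries were 27.8 to 31.4 and 27.9 to 32.1, so that of replicate 2 lay below both, and overlapped that of replicate 1. The annotated genes overlap head to head by 240 bases on opposite strands, and the use of strand in counting is not given. Counted as 1 feature, the pair had a log2 fold change of 0.62 (edgeR FDR = 1.76e-09).

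PARP12 (ENSG00000059378.12, chromosome 7 from 139723549 to 139762751, minus strand), a zinc finger member that attaches single ADP-ribose units and sits at the Golgi, did not pass the test. It was at 60.0 and 63.1 CPM in 786-O-Ctrl, against 58.0 and 70.2 CPM with VHL restored, from 1264, 950, 171 and 1182 counts. Of the 786-O-VHL libraries, replicate 1 was below and replicate 2 above both 786-O-Ctrl libraries. The log2 fold change was 0.12 with a 95% interval from -0.04 to 0.29 (edgeR FDR = 0.172). It was -0.089 without 786-O-VHL replicate 2 (edgeR FDR = 0.572) and 0.19 without 786-O-VHL replicate 1 (edgeR FDR = 0.0186). On library totals alone it was 0.26 (edgeR FDR = 0.00557), against the median of 0.15 over all genes on that scale. PARP12 shares the promoter core shown above with DTX3L, PARP9 and PARP14, and its interval reaches 0.29 while that of PARP9, the smallest riser, begins at 0.24. The differences between these genes' fold changes were not tested.

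Counts of a gene divided by PARP1 counts of the same library do not depend on scaling, and they set both role groups side by side. They do depend on transcript length (canonical 7.694 kb for PARP14, 3.978 kb for PARP1), so a ratio above 1 does not mean more transcripts. A fall of PARP1 by itself raises every such ratio. PARP14 had 0.379 and 0.404 counts per PARP1 count without VHL, the deeper library first, against 1.88 and 2.35 in 786-O-VHL replicates 1 and 2. As a share of the PARP14 and PARP1 counts together, PARP14 took 27.5% (exact 95% interval 26.5 to 28.5) and 28.8% (27.6 to 29.9) in 786-O-Ctrl, and 65.3% (62.4 to 68.1) and 70.2% (69.0 to 71.3) in 786-O-VHL. The intervals of the groups are far apart, and those of the 786-O-VHL libraries do not overlap each other. DTX3L moved from 0.292 and 0.304 to 0.960 and 1.28 counts per PARP1 count, PARP10 from 0.290 and 0.288 to 1.14 and 1.44, PARP9 from 0.122 and 0.130 to 0.407 and 0.417, and PARP12 from 0.211 and 0.230 to 0.452 and 0.640. PARP2, which fell by less, took 10.1% and 11.1% of the PARP2 and PARP1 counts together without VHL and 15.6% and 18.9% with it. The geometric mean level of the 5 interferon-responsive members over that of the 2 DNA repair members was 0.720 and 0.718 in 786-O-Ctrl, against 1.91 and 2.14 in 786-O-VHL. With 2 libraries against 2, a two-sided exact permutation test cannot go below 0.333, so these ratios are given as values.

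**Figure D2:**
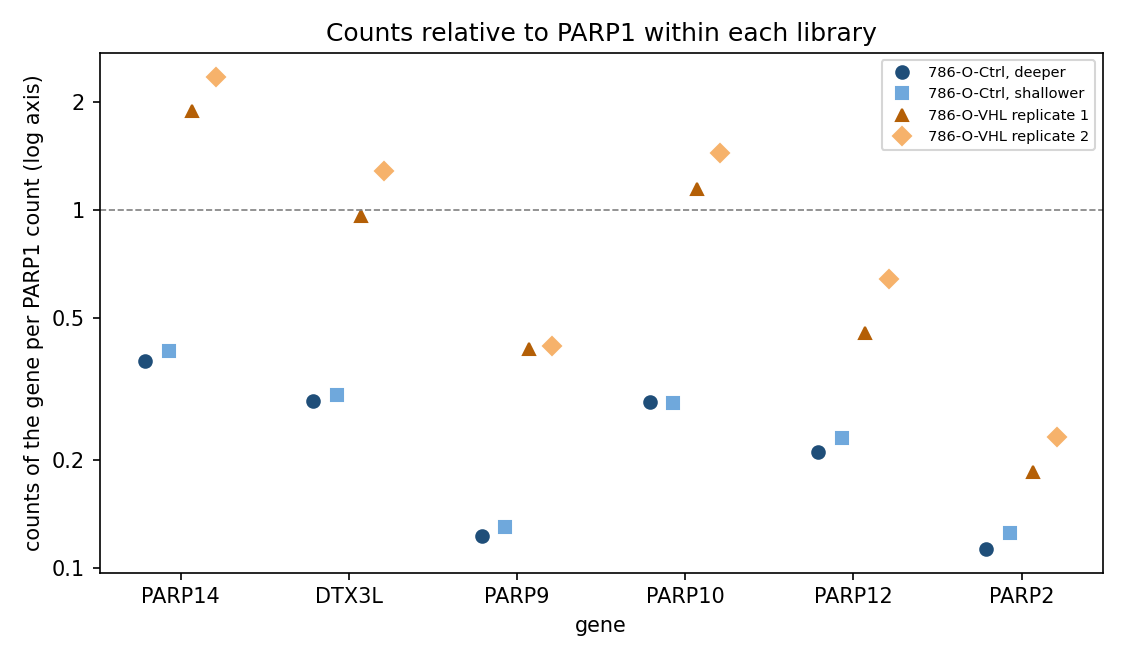
Counts of each interferon-responsive member and of PARP2 per PARP1 count of the same library, on a log axis, with 1 symbol per library. The dashed line marks equal counts, not corrected for transcript length. All 6 ratios lie higher with VHL restored, where PARP1 itself fell, although PARP2 also fell and PARP12 did not pass the test. The ratios of PARP14 and PARP10 cross from below 1 to above 1 in both of those libraries.

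The remaining members split. PARP6 (ENSG00000137817.17, chromosome 15 from 72533522 to 72565340, minus strand), which attaches single ADP-ribose units and is known from dendrite growth, was at 41.1 and 39.5 CPM in 786-O-Ctrl, against 79.4 and 82.8 CPM with VHL restored. It rose with tight replicates, at a log2 fold change of 1.02 (SE 0.0765, edgeR FDR = 2.58e-12), although it belongs to neither of the roles compared. PARP8 (ENSG00000151883.18, chromosome 5 from 49961733 to 50142353, plus strand), a relative of PARP6, was at 14.7 and 17.8 CPM in 786-O-Ctrl, against 28.5 and 23.9 CPM with VHL restored. Its log2 fold change was 0.63 (SE 0.132, edgeR FDR = 0.000136), and 1.02 with all libraries thinned to the shallowest. PARP4 (ENSG00000102699.6, chromosome 13 from 24995069 to 25086916, minus strand), the PARP of the vault particle, was at 123 and 115 CPM in 786-O-Ctrl, against 94.6 and 104 CPM with VHL restored. It fell slightly, at a log2 fold change of -0.24 (SE 0.0691, edgeR FDR = 0.00384), and the call was lost without the deeper 786-O-Ctrl library (-0.20, edgeR FDR = 0.118) and on library totals alone (-0.10, edgeR FDR = 0.185). For these 3 members the groups did not overlap. An annotated gene without a row in the table lies on the same strand across part of PARP6, and another lies on the opposite strand across all of PARP4. An antisense RNA without counts here overlaps PARP8 by 766 bases.

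Levels of different genes were compared as CPM per kilobase of the canonical transcript. In 786-O-Ctrl, PARP1 was the highest of the 10, at 70.2 ± 1.82 CPM per kilobase (SD, n = 2), followed by PARP10 at 23.0 ± 0.722 and PARP4 at 21.9 ± 0.944, which overlapped. PARP12, PARP2, PARP6, DTX3L, PARP14 and PARP9 followed between 20.4 and 11.6, of which PARP6 overlapped both DTX3L and PARP14, and PARP8 was lowest at 2.18 ± 0.292. In 786-O-VHL the order began with PARP10 at 43.4 ± 2.37, PARP14 at 32.4 ± 1.55, PARP1 at 29.9 ± 3.31 and PARP6 at 29.1 ± 0.878 CPM per kilobase, and PARP1 overlapped both PARP14 and PARP6. The order depends on the length used, since over all annotated exons together PARP1 would be 2nd in 786-O-Ctrl but 7th with VHL. The members together summed to 821 and 816 CPM in 786-O-Ctrl on library totals, against 1024 and 1064 with VHL. Of the summed member counts PARP1 took 32.9% and 32.1% in 786-O-Ctrl, against 13.1% and 10.8% in 786-O-VHL, while PARP14 went from 12.5% and 13.0% to 24.7% and 25.3%.

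Most PARP genes outside the member list were higher, a DNA repair PARP among them. Of 8 such genes, 7 had counts and were tested, of which 5 were higher (32.6% of all genes were) and 2 did not pass. Their median log2 fold change was 0.72. PARP3, a DNA repair PARP that acts at double-strand breaks, was at 28.3 and 28.2 CPM in 786-O-Ctrl, against 54.3 and 55.3 CPM with VHL restored. It rose by a log2 fold change of 0.96 (SE 0.0902, edgeR FDR = 2.62e-10), opposite to PARP1 and PARP2. PARP11, PARP16 (an endoplasmic reticulum member) and the tankyrase TNKS2 rose by 1.03, 0.72 and 0.42 on the log2 scale. ZC3HAV1, the antiviral zinc finger member also called PARP13 and an interferon-stimulated gene itself, had a log2 fold change of -0.13 (edgeR FDR = 0.0934). TIPARP, a target of the aryl hydrocarbon receptor, had one of -0.0062 (edgeR FDR = 0.955), and the sign of both turned on library totals alone. TNKS is split over a pair of identifiers, and the one with more counts had 24, 28, 6 and 49 counts and a log2 fold change of 0.90 (edgeR FDR = 0.0332), a call that was lost with DESeq2. It was 0.53 without the deeper 786-O-Ctrl library (edgeR FDR = 0.403) and 0.48 without 786-O-VHL replicate 2 (edgeR FDR = 0.636).

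**Figure D3:**
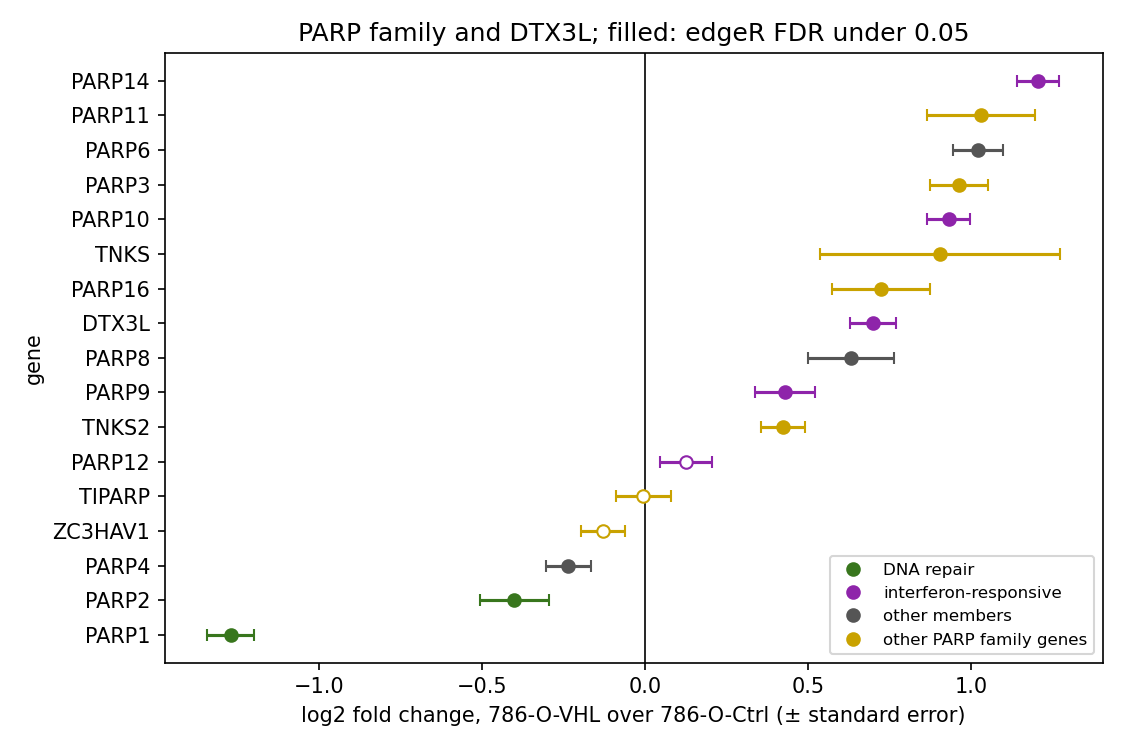
Log2 fold change of 786-O-VHL over 786-O-Ctrl for the 10 members and 7 other PARP family genes, with bars for the standard error and filled symbols for an edgeR FDR under 0.05. PARP1 lies lowest at -1.27 and PARP14 highest at 1.21, and the filled symbols to the left of 0 are PARP1, PARP2 and PARP4.

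Genes of strand break and base excision repair make, process or seal the breaks that PARP1 and PARP2 bind. Of 19, 10 did not pass, 8 were lower (31.9% of all genes were) and 1 was higher (32.6%), with a median log2 fold change of -0.30. With DESeq2, 5 were lower and 0 higher. On library totals alone 6 were lower and 4 higher, with a median of -0.17. FEN1, the flap nuclease of replication and long-patch repair, fell from 108 and 103 CPM to 13.9 and 16.6 CPM (log2 fold change -2.71, SE 0.0925, edgeR FDR = 9.6e-20). LIG1, the replicative DNA ligase, fell by 2.01 on the log2 scale. POLB, the base excision repair polymerase, was the gene that rose, with a log2 fold change of 0.46 (edgeR FDR = 0.0101), a call lost with DESeq2 and without the deeper 786-O-Ctrl library (edgeR FDR = 0.122). XRCC1, the scaffold that reads poly(ADP-ribose) and was singled out after its value was seen, had a log2 fold change of -0.38 (edgeR FDR = 0.00527). It did not pass with DESeq2, on library totals alone, after thinning or without the shallower 786-O-Ctrl library (edgeR FDR = 0.0701), and was -0.15 without 786-O-VHL replicate 2 (edgeR FDR = 0.51).

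Genes that remove ADP-ribose or assist PARP1 went both ways. Of 11, 4 were higher, 4 were lower and 3 did not pass, with a median of -0.13, where 32.6% of all genes were higher and 31.9% lower. ADPRM, a hydrolase of free ADP-ribose, and MACROD1, a macrodomain hydrolase of mitochondria, rose most, by 1.37 and 1.22 on the log2 scale. ENPP1, a surface nucleotide pyrophosphatase, and MACROD2 fell most, with log2 fold changes of -1.33 and -1.28. HPF1 and PARG, singled out after their values were seen as the cofactor of PARP1 and the main poly(ADP-ribose) hydrolase, had log2 fold changes of -0.49 (edgeR FDR = 0.0104) and -0.20 (edgeR FDR = 0.0694). HPF1 did not pass with DESeq2, on library totals alone or without the shallower 786-O-Ctrl library, and was -0.049 after thinning and -0.99 without 786-O-VHL replicate 2. Without that replicate PARG was at -0.074 (edgeR FDR = 0.707), and without 786-O-VHL replicate 1 at -0.24 (edgeR FDR = 0.0219). On library totals 4 of the 11 were higher and 2 lower.

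Genes of interferon signaling, the pathway that PARP9, PARP10, PARP12, PARP14 and DTX3L are known to answer to, were higher in 9 of 13 tested cases and lower in 2. Over all genes 32.6% were higher and 31.9% lower. The median log2 fold change of the list was 0.41. With DESeq2, 6 were higher and 2 lower. IRF1, an interferon-induced transcription factor, rose from 63.7 and 74.7 CPM to 261 and 278 CPM (log2 fold change 1.98, SE 0.0725, edgeR FDR = 4e-19). SOCS1, a feedback inhibitor of the pathway, rose by 1.84. TYK2, a receptor-bound kinase of the pathway, fell, with a log2 fold change of -0.25 (edgeR FDR = 0.00197), which did not pass on library totals alone or after thinning. STAT2, a transcription factor of the type I interferon response, was singled out after its value was seen and had a log2 fold change of 0.82 (edgeR FDR = 2.49e-10). The 4 interferon-responsive members that rose did so while 9 genes of this list were higher, IRF1 and STAT2 among them. Another 2 were lower, TYK2 among them. The receptor genes IFNAR1 and IFNAR2 did not pass, with log2 fold changes of -0.13 and -0.10 (edgeR FDR = 0.165 and 0.794). Any part of these genes in the change of the members was not tested.

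**Figure D4:**
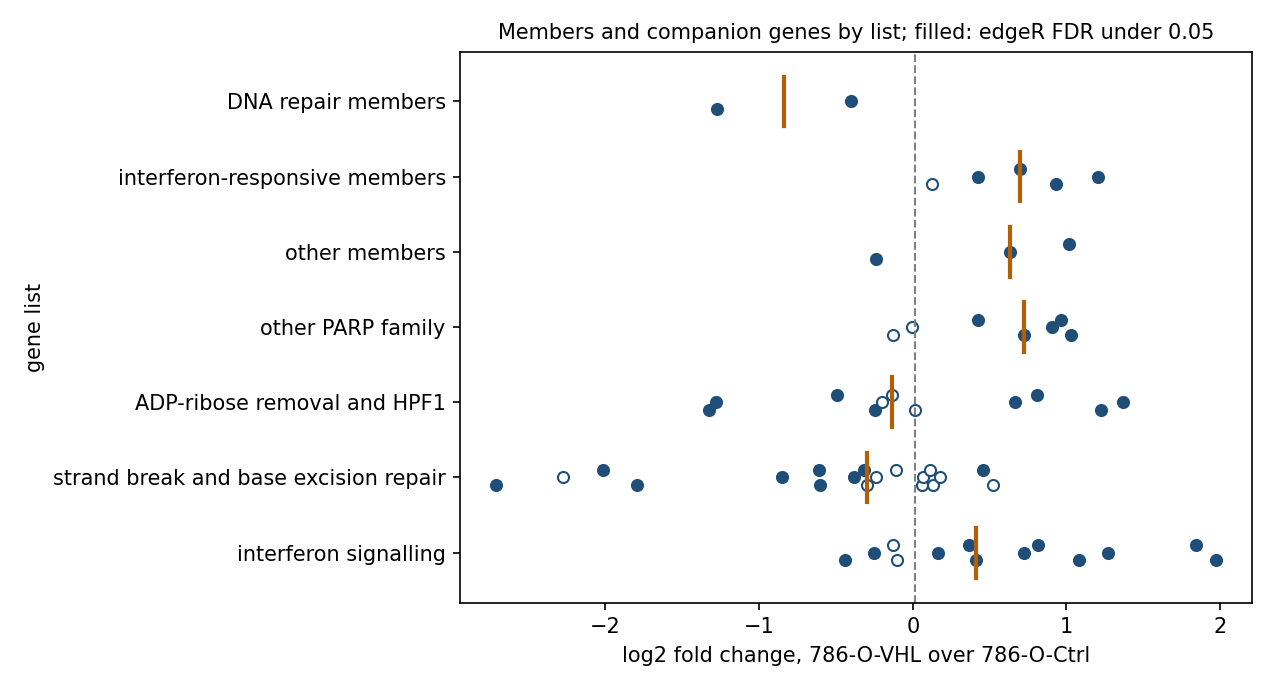
Log2 fold change of each tested gene by list, with filled symbols for an edgeR FDR under 0.05, orange bars at the list medians and a dashed line at the median of all genes (0.017). The DNA repair members and the repair genes have medians below 0 (-0.84 and -0.30), and the interferon-responsive members and interferon signaling genes above it (0.70 and 0.41).

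PARP9, DTX3L and PARP14 lie in 1 stretch of chromosome 3, with a gap of 105.635 kb from the end of DTX3L to the start of PARP14 that holds PARP15. Within 100 kb of these genes, 6 of 12 annotated genes had counts, of which 3 are members. HSPBAP1, the next gene after PARP14, was at 4.08 and 2.86 CPM in 786-O-Ctrl, against 9.84 and 8.14 CPM with VHL restored (log2 fold change 1.27, SE 0.236, edgeR FDR = 3.32e-05). SLC49A4, further along, had a log2 fold change of 0.39 (edgeR FDR = 0.0117), a call lost with DESeq2, after thinning, without the shallower 786-O-Ctrl library (edgeR FDR = 0.181) and without 786-O-VHL replicate 2 (edgeR FDR = 0.331). KPNA1, on the other side of PARP9, had 0.03 (edgeR FDR = 0.718). HSPBAP1, which is no member, thus rose beside PARP14, with a wider error.

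**Figure D5:**
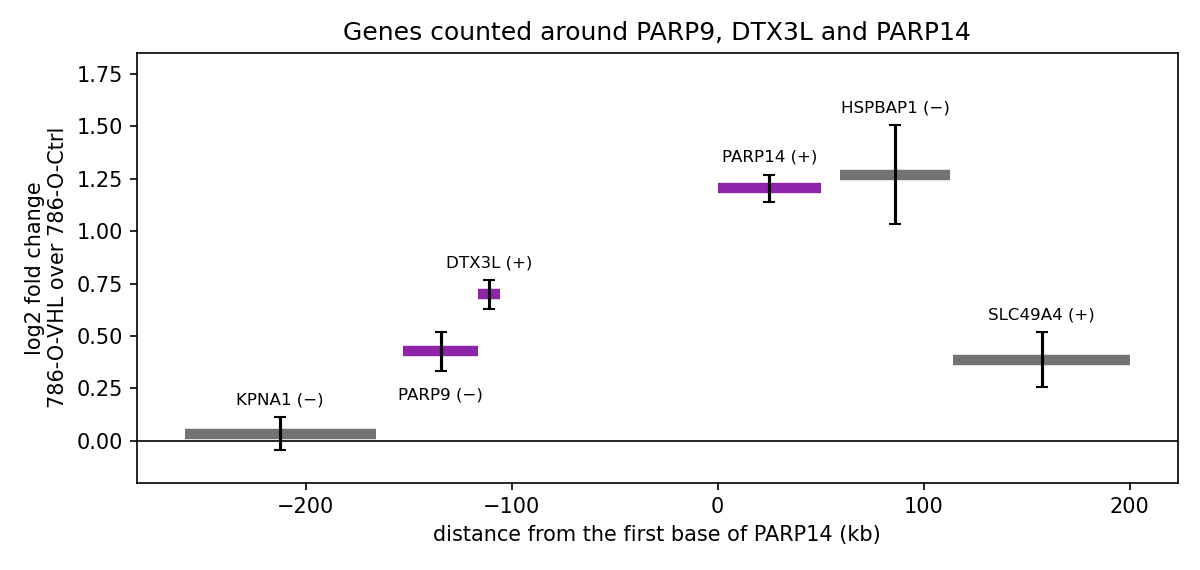
Log2 fold change of the 6 counted genes around PARP14 against distance from its first base in kb. Each bar spans a gene, members in purple and other genes in grey, with its standard error and strand; KPNA1 lies at 0.03 and HSPBAP1 at 1.27.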

How the data were processed

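Total RNA of 2 786-O-Ctrl and 2 786-O-VHL libraries was sequenced by the authors, aligned to hg19 and deposited as raw counts per gene, as whole numbers. The submitters' processing notes name CASAVA and STAR. How strand was treated, and with which counter and gene models, is not given in the sources used here. Samples were grouped by their titles.

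Genes were handled by Ensembl identifier, since 75 symbols were duplicated. Of 12912 genes, 12335 passed edgeR's filterByExpr (minimum count 10). Counts were scaled by TMM to give CPM and were tested with edgeR 4.0.16 (R 4.3.3) by the quasi-likelihood F test with Benjamini-Hochberg adjustment over all genes tested. The standard error is that implied by the F statistic. The spread of a gene had 2 degrees of freedom of its own and 25.5 shared over all genes, so p-values rest mainly on the shared part. The biological coefficient of variation was 4.31%. Replicates differed by more than counting noise, with a chi-square per degree of freedom of 2.25 and 2.76. Gene positions and lengths are from GENCODE on GRCh37, a later annotation than that of the counts. On counts simulated for this comparison over 12335 genes, edgeR recovered 91 of 100 genes changed 2-fold and 98 of 100 changed 4-fold, with 6 false calls.

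The members and lists were chosen with earlier results of these data known. Named were all members, the other PARP genes, of each companion list the 2 largest rises and falls past FDR 0.05, genes that overlap or neighbor a member, and the 3 genes nearest in pattern to PARP14 and PARP1. A gene that this rule names is not reported here. Alternatives were DESeq2 1.42.0, limma-voom (limma 3.58.1), RLE factors, library totals alone, no filter, at least 10 counts in every library, a prior count of 2, thinning to the shallowest library, and each library left out in turn.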

Additional observations from a re-analysis of the deposited data

How the results depend on the processing

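The log2 fold changes of PARP1, PARP9, PARP10, PARP14, DTX3L, PARP6 and PARP8 kept their direction and stayed past an FDR of 0.05 in all 12 alternatives. Over all members, 114 of 120 values kept direction and side of the threshold, 3 lost it, 2 gained it and 1 reversed. Of the 120, those with a prior count of 2 could not change side, since that setting alters the fold change and leaves the FDR as it was. The reversal was PARP12 without 786-O-VHL replicate 2, with a range from -0.089 to 0.19 over the libraries left out. The values lost were PARP4 on library totals alone (-0.10) and without the deeper 786-O-Ctrl library (-0.20), and PARP2 after thinning (-0.21), where fewer counts were tested. The number of members called stayed between 6 and 7 higher and between 2 and 3 lower. Of the 61 tested companion genes 26 were higher and 16 lower (32.6% and 31.9% of all genes). Among the 26, DTX1, DTX3 and NMNAT3 passed the filter on low counts only through the 786-O-VHL libraries. With at least 10 counts asked of every library, 23 were higher and 16 lower. The number of companion genes lower became 10 with DESeq2, 10 on library totals alone and 9 after thinning. With each library left out, it stayed between 12 and 18. Library totals moved the median log2 fold change of all genes from 0.017 to 0.15. The cause of the other changes was not tested. No paired analysis was possible because both 786-O-Ctrl columns carry the same replicate number. The depth of 786-O-VHL replicate 1 limits PARP2, with 70 counts there, and PARP8, with 84.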

Other observations

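Genes around the supply of NAD+, the substrate of PARP enzymes, were higher in 3 of 7 tested cases and lower in 2 (32.6% and 31.9% of all genes). Their median log2 fold change was 0.34. NMNAT3, 1 of the 3 that were higher, passed the filter on low counts only through the 786-O-VHL libraries. Its call is therefore not evidence about the list. With at least 10 counts asked of every library, 3 of 6 were higher and 2 lower, with NMNAT1 (edgeR FDR = 0.0468) in place of NMNAT3. NNMT, 1 of the 3 that were higher, uses up nicotinamide and does not supply NAD+. NNMT, which methylates nicotinamide, was at 202 and 204 CPM in 786-O-Ctrl, against 298 and 289 CPM with VHL (log2 fold change 0.53, edgeR FDR = 2.38e-08). QPRT, of the de novo route from tryptophan, and NADSYN1, the NAD synthetase, fell by 0.48 and 0.25 on the log2 scale, and on library totals alone 5 genes were higher and 1 lower. NADSYN1 did not pass with DESeq2, on library totals alone, after thinning or without either 786-O-Ctrl library (edgeR FDR = 0.128 and 0.109), and was -0.069 without 786-O-VHL replicate 2 (edgeR FDR = 0.686). NMNAT3 had 3 and 6 counts in 786-O-Ctrl, against 5 and 29 in 786-O-VHL, and its fitted value of 2.73 (log2 scale, SE 0.571, edgeR FDR = 0.00014) rests on few counts. NAMPT, the rate-limiting enzyme of nicotinamide salvage, was singled out after its value was seen and had a log2 fold change of 0.49 (edgeR FDR = 1.67e-07).

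Of the relatives of DTX3L in the deltex family, 4 were tested and 4 were higher at FDR under 0.05 (32.6% of all genes were). However, DTX1 and DTX3 are near the limit of detection and passed the filter on low counts only through the 786-O-VHL libraries. Their higher calls are therefore not evidence about the family. With at least 10 counts asked of every library, DTX2 and DTX4 were tested, and 2 of 2 were higher. DTX2, which had the most counts, was at 23.9 and 23.1 CPM in 786-O-Ctrl, against 29.5 and 31.3 CPM with VHL (log2 fold change 0.39, edgeR FDR = 0.00255), a call lost with DESeq2, without the shallower 786-O-Ctrl library (edgeR FDR = 0.0561) and without 786-O-VHL replicate 2 (edgeR FDR = 0.137). DTX3 had 0 and 1 counts in 786-O-Ctrl, against 5 and 17 in 786-O-VHL, and DTX1 had 7 and 3 against 7 and 26.

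Among 9225 tested genes with a mean of at least 10 CPM and, as an added condition, a count in every library, those nearest to PARP14 in pattern over the 4 libraries were RBCK1, TUFT1 and PRELID3A, with Euclidean distances of log2 CPM centered on the gene mean of 0.038, 0.0405 and 0.0449 and log2 fold changes of 1.20, 1.18 and 1.24. Nearest to PARP1 were ADGRA3, SNRPD3 and ENPP1, at distances of 0.0459, 0.0551 and 0.0579 and log2 fold changes of -1.28, -1.28 and -1.33. With 4 libraries, many genes with a like difference between the groups are near.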
